A study of Mus musculus with 36 samples.

Results

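The sinus node and conduction transcription factors described here are Shox2, Isl1, Tbx18, Tbx3 and Tbx2, measured in the developing hearts of C57BL/6 mice. Their members were all probe sets annotated to 1 of these 5 symbols alone, which gave 12 of the 45037 probe sets on the array that are not controls, and 9 of the 12 passed the filter on low values. The samples were total RNA from timed matings, with 3 arrays in each of 12 groups: atria and ventricles (both ventricles together) at embryonic days E12.5, E13.5 and E14.5 and later at E16.5 and E18.5, and the middle part of the embryo, which contains the heart, at E11.5 and E10.5. For that middle part the labels also give whole heart as the source, and it is called the heart region below. The E16.5 samples carry an earlier day in one label field, and the day in their titles was used. The labels state no mutation or treatment for any of the 12 groups. The labels do not say whether the 3 samples of a group came from separate animals or litters. Every p-value below thus sets a difference against the spread between samples of a group, in the main fit estimated from all 12 groups together. The small number of samples limits the precision.

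The sinus node starts each heartbeat, and in the embryo it forms at the inflow end of the heart, where the great veins join the right atrium. Shox2 is a homeodomain factor that keeps the inflow cells in a pacemaker state and holds back Nkx2-5 there, and Isl1 is a LIM-homeodomain factor of cardiac progenitors that stays on in the sinus node. Tbx18 is a T-box factor of the venous inflow horns, needed for the head of the node, and is also on in the epicardium. Tbx3 and Tbx2 are closely related T-box repressors that keep the node and the atrioventricular canal from turning into working chamber muscle.

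RefSeq promoter sequences (GRCm38.p6) were at hand for Shox2, Isl1 and Tbx18, and are shown because Shox2 and Isl1 move together across the chambers below, while Tbx18 takes another course. Each runs from 250 bases before to 50 bases after the gene's start, on the minus strand, at chr3:66981722-66982021 for Shox2, chr13:116309639-116309938 for Isl1 and chr9:87731211-87731510 for Tbx18. Capitals mark TAAT, the core bound by homeodomain factors, GATAA, the core bound by GATA factors, and TATAAA, the letters of the TATA box wherever they lie, on either strand.
Shox2: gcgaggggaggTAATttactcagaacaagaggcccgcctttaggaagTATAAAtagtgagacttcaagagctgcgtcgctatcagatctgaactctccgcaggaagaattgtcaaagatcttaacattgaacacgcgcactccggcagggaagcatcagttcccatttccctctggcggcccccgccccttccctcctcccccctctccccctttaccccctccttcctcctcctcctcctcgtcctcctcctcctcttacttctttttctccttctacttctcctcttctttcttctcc
Isl1: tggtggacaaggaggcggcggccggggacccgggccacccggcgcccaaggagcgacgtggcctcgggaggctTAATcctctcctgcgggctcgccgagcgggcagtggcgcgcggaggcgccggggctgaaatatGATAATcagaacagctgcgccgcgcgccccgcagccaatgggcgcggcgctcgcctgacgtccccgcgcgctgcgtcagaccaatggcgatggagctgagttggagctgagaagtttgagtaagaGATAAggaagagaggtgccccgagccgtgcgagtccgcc
Tbx18: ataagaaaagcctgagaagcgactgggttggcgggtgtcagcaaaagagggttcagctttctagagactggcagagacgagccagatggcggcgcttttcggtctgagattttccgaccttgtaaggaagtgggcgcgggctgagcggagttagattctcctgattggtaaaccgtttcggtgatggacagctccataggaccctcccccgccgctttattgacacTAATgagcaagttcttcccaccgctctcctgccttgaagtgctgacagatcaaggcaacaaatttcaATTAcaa
The Shox2 window holds 1 TAAT at position -239 and 1 TATAAA at -203. The Isl1 window holds TAAT at -177 and -112 and GATAA at -114 and 12, and the GATAA at -114 overlaps a TAAT. The Tbx18 window holds TAAT at -24 and 44. GGTGTG, the core bound by T-box factors, was in none of the 3 windows on either strand. Among 32851 mouse promoters of the same length, TAAT was in 58%, GATAA in 25.4%, TATAAA in 13.6% and GGTGTG in 19%. The windows also differed in base composition: GC content was 53.3% with 11 CpG dinucleotides for Shox2, 69% with 37 for Isl1 and 51.7% with 15 for Tbx18, against a median GC of 52.7% over all promoters. These matches describe the letters in the windows and were not tested for binding.

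Values are the deposited array intensities, scaled so that the trimmed mean was 500 on every array, and the median probe set of an array lay between 143.8 and 210.7. Differences are given as log2 of the intensity plus 17, which understates the change of dim probe sets, and a call is an adjusted p below 0.05 in limma after Benjamini-Hochberg adjustment over the 27256 probe sets tested. A gene with several probe sets is led by the one with the highest mean over all 36 arrays, and the level of one probe set is not comparable with that of another. In all 12 groups heart muscle genes were high, with 6 cardiomyocyte genes summing to 60017.2 to 102134.3 on atrial arrays, 62985.1 to 90550.9 on ventricular arrays and 69697.9 to 77975.9 on heart region arrays. Some arrays stood apart from their labels. On 3 atrial arrays (the third replicates of E13.5, E16.5 and E18.5) 10 lung and foregut genes summed to 7657.9 to 14373.3, against 1127.5 to 3225.7 on the other 12 atrial arrays. On 5 atrial arrays (replicate 2 at E12.5, replicates 1 and 2 at E14.5, replicate 2 at E16.5 and replicate 1 at E18.5) 3 ventricular genes (Irx4, Myl2 and Hey2) summed to 13637 to 21985.8, against 734.1 to 8135.5 on the other 10. On 3 ventricular arrays (the first replicates of E12.5, E13.5 and E18.5) single atrial genes were high, with Nr2f1 at 457.3 on the first and Sln at 1789.3 on the last. These 3 were picked, after the values were seen, by the mean log2 level of Myl7, Nr2f1 and Sln, and the sum of those genes did not set them apart, at 9078.2 to 13134.7, against 4488 to 15991.9 on the other 12. The highest sum was on E12.5 replicate 3, where Sln was at 333.6, against 203.7 on E12.5 replicate 1, so the results without 8 arrays below (these 3 and the 5 atrial arrays) rest on that choice. Liver genes varied too: 5 of them summed to a median of 1675.1 on atrial and 346.9 on ventricular arrays, with 18340.3 on E12.5 atrial replicate 2 and 10745.8 on E16.5 ventricular replicate 2. Some of the results that rest on the arrays with lung genes or genes of the other chamber are given with and without them below. The E14.5 chamber differences, and the atrial changes of Shox2 and Tbx18 with age, are given only with the arrays that carry genes of the other chamber. Leaving out the 8 arrays keeps 1 array of E14.5 atria, replicate 3, so means over ages without them rest on it at that age. In RNA from whole chambers, fewer cells of a type and less RNA per cell cannot be told apart.

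The 5 factors fell into different patterns across chambers and ages. Shox2 and Isl1 were higher in atria than in ventricles, Tbx18 passed the test at E12.5, and Tbx3 and Tbx2 passed the test at no age. Averaged over the 5 ages, 4 of the 9 member probe sets were called higher in atria and none lower, where 20.9% of all tested probe sets were called higher and 42.4% were called in either direction. The median difference of the 9 was 0.39, against -0.01 over all tested probe sets. By age, 5 of 9 were called higher at E12.5, where 4.4% of all tested probe sets were. At E13.5, E14.5 and E16.5 the count was 3 of 9 each time, where 5.87%, 3.8% and 8.55% of all were called higher, and at E18.5 it was 1 of 9, where 11% were. None of the 9 was called lower at any age. Several of these probe sets belong to the same gene. Counted by leading probe set, 2 of the 5 genes were called higher on the mean and 3 at E12.5. The count was 2 at each of E13.5, E14.5 and E16.5, and 1 at E18.5.

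**Figure D1:**
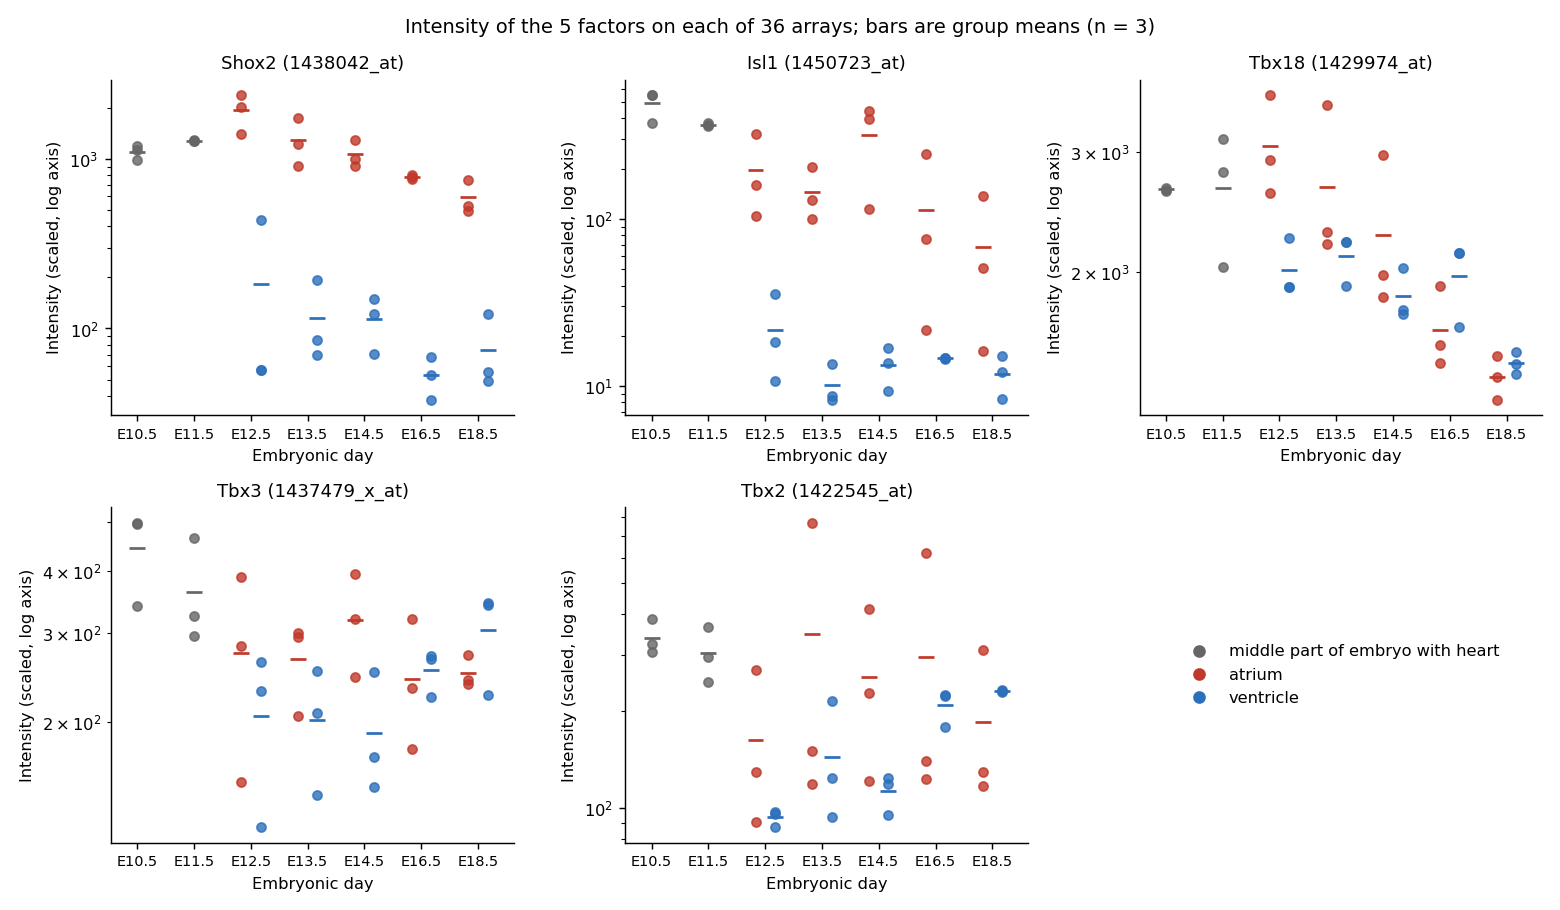
Scaled intensity (log axis) of the leading probe set of each of the 5 factors on all 36 arrays, by embryonic day; points are single arrays, bars are group means (n = 3), atria stand left of ventricles, and grey points are the heart region. Shox2 atrial arrays lie between 495.3 and 2378.1, all above the ventricular arrays, and the atrial and ventricular points of Tbx3 mix.

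Shox2 was the factor with the clearest division between chambers. In atria its leading probe set (1438042_at) measured 2017.0, 2378.1 and 1391.7 at E12.5, 1747.4, 1221.3 and 906.8 at E13.5, 1002.6, 901.1 and 1290.5 at E14.5, 761.7, 800.8 and 777.2 at E16.5, and 526.7, 752.6 and 495.3 at E18.5. In ventricles it measured 434.4, 56.7 and 56.7 at E12.5, 191.8, 85.2 and 69.6 at E13.5, 70.9, 149.6 and 122.5 at E14.5, 38.0, 68.3 and 53.4 at E16.5, and 120.9, 48.7 and 55.7 at E18.5. The lowest of the 15 atrial arrays (495.3) lay above the highest of the 15 ventricular arrays (434.4), with medians of 906.8 and 69.6, a separation that 0.47% of all tested probe sets showed in this direction. The highest ventricular value came from E12.5 replicate 1, one of the arrays with a high atrial gene, and the other 14 ventricular arrays were at or below 191.8. The mean difference over 5 ages was 3.31 ± 0.19 (SE; limma adjusted p = 3.46e-14), which is 9.94-fold for intensities with 17 added. It was 3.67 without the 8 arrays that carried genes of the other chamber. Age by age, from E12.5 to E18.5, the difference was 3.82, 3.36, 3.08, 3.53 and 2.78, each with an SE of 0.43 and each called, with limma adjusted p between 1.03e-06 and 5.47e-05.

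The second Shox2 probe set (1420559_a_at) was dim and moved the same way. It reached 251.5 on atrial arrays, with a median of 103.8, and 69.8 on ventricular arrays, with a median of 7.4. The chambers did not overlap at any of the 5 ages. From E12.5 to E18.5, 9.79%, 18.3%, 9.56%, 14.7% and 21.1% of all tested probe sets were higher in every atrial array. The mean difference of the second Shox2 probe set was 2.06 ± 0.21 (SE; limma adjusted p = 3.64e-09), called at every age but E18.5, where it was 1.12 with a 95% interval of 0.16 to 2.08 (limma adjusted p = 0.0945). Ordered by mean intensity of the leading probe set, the 12 groups ran E12.5 atria (1929), E13.5 atria (1292), the E11.5 heart region (1277), the E10.5 heart region (1101), E14.5 atria (1065), E16.5 atria (779.9) and E18.5 atria (592), and then the 5 ventricular groups from 183 at E12.5 down to 53.2 at E16.5. Among the neighbours in that order, the 3 values did not overlap between the E11.5 and E10.5 heart region, between E14.5 and E16.5 atria, between E16.5 and E18.5 atria, and between E18.5 atria and E12.5 ventricles, and they overlapped for the other neighbours.

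Isl1 was also higher in atria, with a wide spread between the atrial replicates of an age. Its leading probe set (1450723_at) measured in atria 160.2, 321.8 and 104.6 at E12.5, 204.9, 100.7 and 129.1 at E13.5, 440.1, 115.2 and 399.1 at E14.5, 75.7, 243.6 and 21.7 at E16.5, and 50.7, 137.5 and 16.2 at E18.5. In ventricles it measured 18.3, 10.8 and 35.6 at E12.5, 13.6, 8.3 and 8.8 at E13.5, 17, 13.7 and 9.3 at E14.5, 14.6, 14.7 and 14.8 at E16.5, and 12.2, 8.4 and 15.1 at E18.5. Every ventricular array was thus at 35.6 or below, and the atrial arrays spread widely within an age, with the lowest values on E18.5 replicate 3 and E16.5 replicate 3, both arrays with high lung genes. This probe set was itself dim: 11 of 36 arrays exceeded the filter value of 171.8, none of them ventricular. It passed the filter through atrial and heart region arrays. Ventricular values lay near the 17 added before the log2, so the size of the difference depends on that setting. The chambers did not overlap within any of the 5 ages, where 9.79%, 18.3%, 9.56%, 14.7% and 21.1% of all tested probe sets, from E12.5 to E18.5, were higher in every atrial array. Across ages the 15 atrial arrays overlapped the 15 ventricular arrays, since 2 atrial arrays lay below the highest ventricular one. The mean difference over 5 ages was 2.22 ± 0.23 (SE; limma adjusted p = 5.34e-09), 2.47 without the 3 arrays with high lung genes and 2.12 without the 8 arrays with genes of the other chamber.

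From E12.5 to E18.5, the Isl1 difference was 2.38, 2.53, 3.28, 1.63 and 1.29 (SE 0.52 each). It was called at the first 4 ages, with limma adjusted p of 0.00344, 0.0013, 0.000258 and 0.0292, and not at E18.5, where limma adjusted p was 0.0801 and the 95% interval 0.23 to 2.35. Without the 3 arrays with high lung genes, the difference was 2.29 at E16.5 (limma adjusted p = 0.00199) and 1.83 at E18.5 (limma adjusted p = 0.0111), so the last age was also called. Without atrial replicate 2, the highest Isl1 array of that age, the E16.5 difference was 0.92 (limma adjusted p = 0.252), and leaving out atrial replicate 1 or any single ventricular array also ended the call. The second Isl1 probe set (1422720_at) was dim in both chambers, at 4.8 to 189.1 on atrial arrays and 8.2 to 66.1 on ventricular arrays. It overlapped between chambers at 4 of 5 ages and was called at no single age. Its mean difference of 0.73 ± 0.26 (SE; limma adjusted p = 0.024) was 0.61 without E14.5 atrial replicate 1 (limma adjusted p = 0.052). Motor and autonomic neurons also use Isl1, and the 9 measured genes of a neural and ganglion list summed to 965.4 to 1910 on atrial arrays and 916.5 to 1717.5 on ventricular arrays. Within an age, the atrial array with the highest neural sum was also the highest for Isl1 at 4 of 5 ages: E12.5 replicate 2 (1390.1, with Isl1 at 321.8), E14.5 replicate 1 (1499.7, with Isl1 at 440.1), E16.5 replicate 2 (1910, with Isl1 at 243.6) and E18.5 replicate 2 (1581.4, with Isl1 at 137.5). At E13.5 the array with the highest neural sum (replicate 2, 1527.5) was the lowest for Isl1, and the lowest arrays of both coincided at E12.5, E14.5 and E18.5. Of the neural genes, Elavl4 was called higher in atria (0.42, limma adjusted p = 0.00389) and Elavl3 lower (-0.88, limma adjusted p = 0.00848). Summed over 5 somite and skeletal muscle genes, E14.5 atrial replicates 1 and 3 reached 1914.7 and 1437.7, against 697.8 on replicate 2. Isl1 was at 440.1 and 399.1 on replicates 1 and 3, against 115.2 on replicate 2. Within an age, the atrial array with the highest muscle sum was also the highest for Isl1 at E12.5, E14.5 and E16.5. It was the lowest for Isl1 at E13.5 and E18.5. The part of neural or muscle tissue in the Isl1 values was not tested. In the order of group means the heart region led, at 493 for E10.5 and 367 for E11.5 with no overlap between them, and next came E14.5 atria (318), E12.5 atria (196), E13.5 atria (145), E16.5 atria (114) and E18.5 atria (68.1), with the 5 ventricular groups between 21.6 and 10.2.

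**Figure D2:**
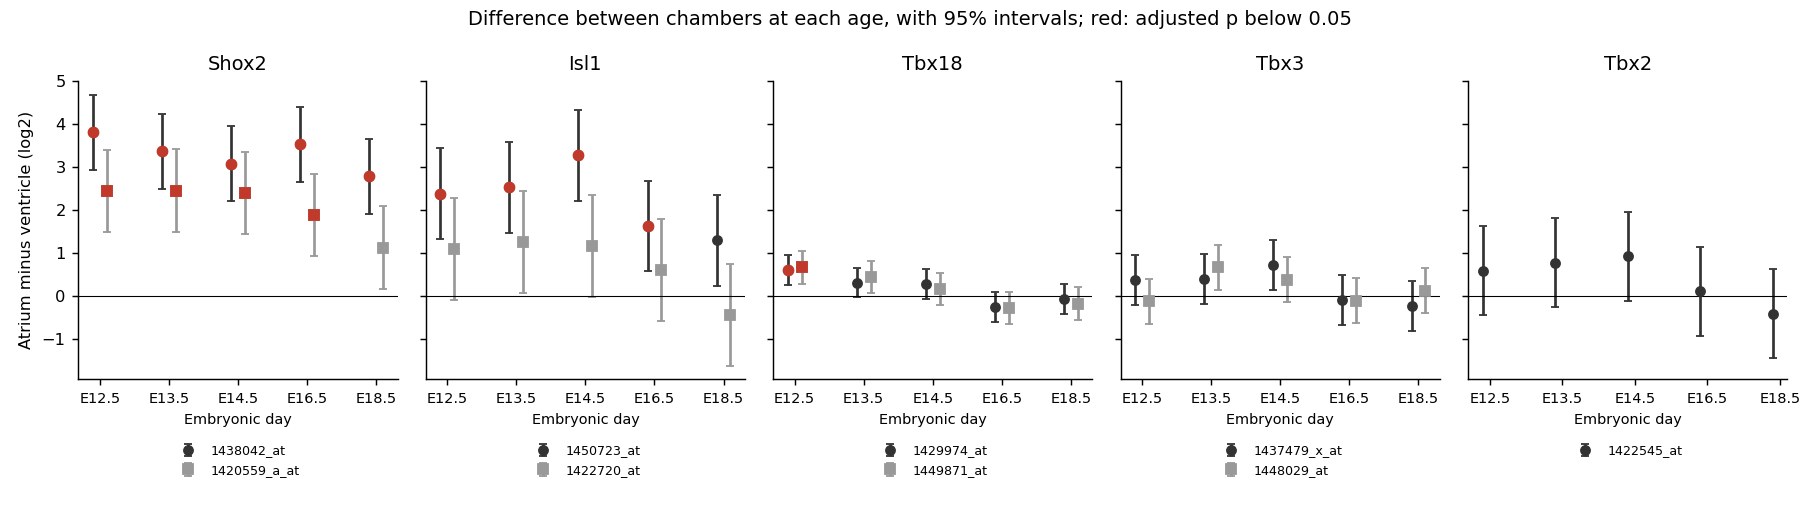
Atrium minus ventricle (log2 of intensity plus 17) at each embryonic day for the 9 tested probe sets of the 5 factors; points are limma estimates, bars are 95% intervals, circles are leading probe sets, squares are second probe sets, and red marks an adjusted p below 0.05. Shox2 lies between 2.78 and 3.82 at all 5 days on its leading probe set, and Tbx18 is called at E12.5.

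Tbx18 was higher in atria than in ventricles at E12.5, and no chamber difference passed the test at the later ages. In atria its leading probe set (1429974_at) measured 2608.3, 3644.7 and 2926.1 at E12.5, 3519.6, 2195.1 and 2291.5 at E13.5, 1978.4, 1831.8 and 2974.4 at E14.5, 1560.7, 1463.7 and 1902.4 at E16.5, and 1500.9, 1396.1 and 1293.7 at E18.5. In ventricles it measured 2239.3, 1896.9 and 1896.5 at E12.5, 2212.2, 2213.4 and 1905.5 at E13.5, 1757.6, 2027.3 and 1734.0 at E14.5, 2127.2, 2128.2 and 1658.0 at E16.5, and 1520.6, 1412.4 and 1462.7 at E18.5. At E12.5 each atrial array lay above each ventricular array, as for 9.79% of all tested probe sets. At the other 4 ages the chambers overlapped on this probe set. The E12.5 difference was 0.59 ± 0.17 (SE; limma adjusted p = 0.0242), and the second probe set (1449871_at) gave 0.66 ± 0.19 (SE; limma adjusted p = 0.0226), with atrial values of 1343.2, 1831.2 and 1448.4 and ventricular values of 1052.4, 821.8 and 1024.9. Neither E12.5 call held without atrial replicate 2, an array with ventricular genes, where limma adjusted p was 0.123 and 0.11, nor without the 8 arrays with genes of the other chamber, where it was 0.1 and 0.0987. Atrial replicate 2 was also the array with 18340.3 in liver genes, against 2428.9 and 2494.3 on replicates 1 and 3, and it had the highest E12.5 atrial value of all 5 factors on their leading probe sets. The part of these other tissues in the Tbx18 difference was not tested. Leaving out ventricular replicate 2 also ended both calls, and leaving out ventricular replicate 3 ended that of the leading probe set. At E13.5, 18.3% of all tested probe sets were higher in every atrial array. On the second probe set of Tbx18 the chambers also did not overlap at that age, with atria at 1019.9 or above and ventricles at 979.8 or below (0.44, limma adjusted p = 0.132). At E16.5 they lay the other way round, with atria at 781.4 or below and ventricles at 817.4 or above (-0.29, limma adjusted p = 0.309), at an age where the chambers did not overlap in 33% of all tested probe sets. At the later ages the leading probe set differed by 0.31, 0.27, -0.26 and -0.07 in order. Averaged over ages the difference was 0.17, with a 95% interval of 0.01 to 0.32 and limma adjusted p of 0.0767. It passed at 0.19 when atrial replicate 1 at E12.5, replicate 2 at E13.5 or replicate 2 at E14.5 was left out (limma adjusted p between 0.0391 and 0.048). Without the 8 arrays with genes of the other chamber it was 0.26. That fit keeps 1 array of E14.5 atria, replicate 3, which had the highest Tbx18 of its group (2974.4).

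Epicardial genes were higher in atria as well. The 7 epicardial genes summed to 7194.5 to 14598.8 on atrial arrays with a median of 11984, and to 3973.8 to 7736.1 on ventricular arrays with a median of 5577.1. All 7 of 7 were called higher in atria over the 5 ages, where 20.9% of all tested probe sets were, from 0.32 for Wt1, a zinc finger factor of the epicardium (limma adjusted p = 0.000444), to 1.91 for Upk3b, a uroplakin of mesothelium (limma adjusted p = 2.88e-14). None of the 7 was at 0 on any array, and their part in the Tbx18 values was not tested. Ordered by mean, E12.5 atria were highest for Tbx18 (3060) and E18.5 ventricles (1465) and E18.5 atria (1397) lowest, and the 3 values overlapped between all neighbours in the order.

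Tbx3, a repressor of chamber genes in node and atrioventricular canal, passed the test in no comparison of chambers on its tested probe sets. Its leading probe set (1437479_x_at, whose suffix marks probes that may match other sequences) measured in atria 283.3, 388.1 and 152.0 at E12.5, 295.5, 205.1 and 299.9 at E13.5, 393.6, 245.3 and 320.0 at E14.5, 176.6, 233.5 and 319.7 at E16.5, and 238.1, 271.3 and 242.3 at E18.5. In ventricles it measured 230.1, 123.3 and 263.1 at E12.5, 252.8, 208.2 and 142.8 at E13.5, 148.6, 251.5 and 170.4 at E14.5, 223.7, 270.1 and 267.0 at E16.5, and 345.0, 225.8 and 341.6 at E18.5. The chambers overlapped at every age. The mean difference was 0.23, with a 95% interval of -0.03 to 0.49 (limma adjusted p = 0.155), and by age it was 0.36, 0.39, 0.71, -0.09 and -0.24. Without E12.5 atrial replicate 3, the lowest atrial array, the mean difference was 0.30 (limma adjusted p = 0.0451). The second probe set (1448029_at) ranged from 152.4 to 366.5 on atrial arrays and from 127.5 to 304 on ventricular arrays, with a mean difference of 0.18 (limma adjusted p = 0.21). The other 3 Tbx3 probe sets were below the filter: 1439567_at reached at most 96, 1445757_at at most 96.4 and 1444594_at at most 21.1. In a fit with no filter, 1439567_at differed by 1.27 at E13.5 (limma adjusted p = 0.0302) and by 0.34 over the 5 ages (limma adjusted p = 0.116). The heart region led the order of means, at 445 for E10.5 and 362 for E11.5, E14.5 ventricles were last at 190.2, and all neighbours overlapped.

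Tbx2, the other repressor, was uneven among atrial replicates. In atria its probe set (1422545_at) measured 90.6, 268.4 and 129.3 at E12.5, 150.7, 118.8 and 770.6 at E13.5, 414.4, 121.6 and 227.8 at E14.5, 123.2, 140.6 and 621.2 at E16.5, and 116.8, 129.4 and 309.1 at E18.5. In ventricles it measured 97.6, 87.1 and 96.0 at E12.5, 215.7, 93.9 and 124.0 at E13.5, 118.5, 124.3 and 95.3 at E14.5, 178.4, 224.1 and 222.8 at E16.5, and 228.9, 230.7 and 232.7 at E18.5. In E13.5, E16.5 and E18.5 atria the highest array was replicate 3, the array with high lung genes, and Sftpc, the surfactant gene of lung epithelium, measured 1744.7, 5693.9 and 10949.1 on those 3 arrays, against 333.8 or less on the other 12 atrial arrays. Tbx2 is also known from lung mesenchyme, and the part of lung tissue in the Tbx2 values was not tested. E14.5 atrial replicate 1 had Tbx2 at 414.4 with a lung and foregut sum of 2128 and a somite and skeletal muscle sum of 1914.7. Tbx2 and the muscle sum were 227.8 and 1437.7 on replicate 3 of that age, and 121.6 and 697.8 on replicate 2. At E13.5 the atrial array with the highest muscle sum (replicate 2, 812.8) was the lowest for Tbx2 (118.8). The part of muscle tissue in the Tbx2 values was not tested. The mean Tbx2 difference was 0.39, with a 95% interval of -0.07 to 0.86 (limma adjusted p = 0.169). Without the 3 arrays with high lung genes it was 0.01 (limma adjusted p = 0.962). Without them the difference by age was 0.58, -0.03, 0.92, -0.59 and -0.82, against 0.58, 0.77, 0.92, 0.11 and -0.42 with them. Ordered by mean, E13.5 atria led (347), then the E10.5 (338) and E11.5 (303) heart region and E16.5 atria (295), E12.5 ventricles were last (93.6), and only E18.5 and E16.5 ventricles, among neighbours, did not overlap.

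**Figure D3:**
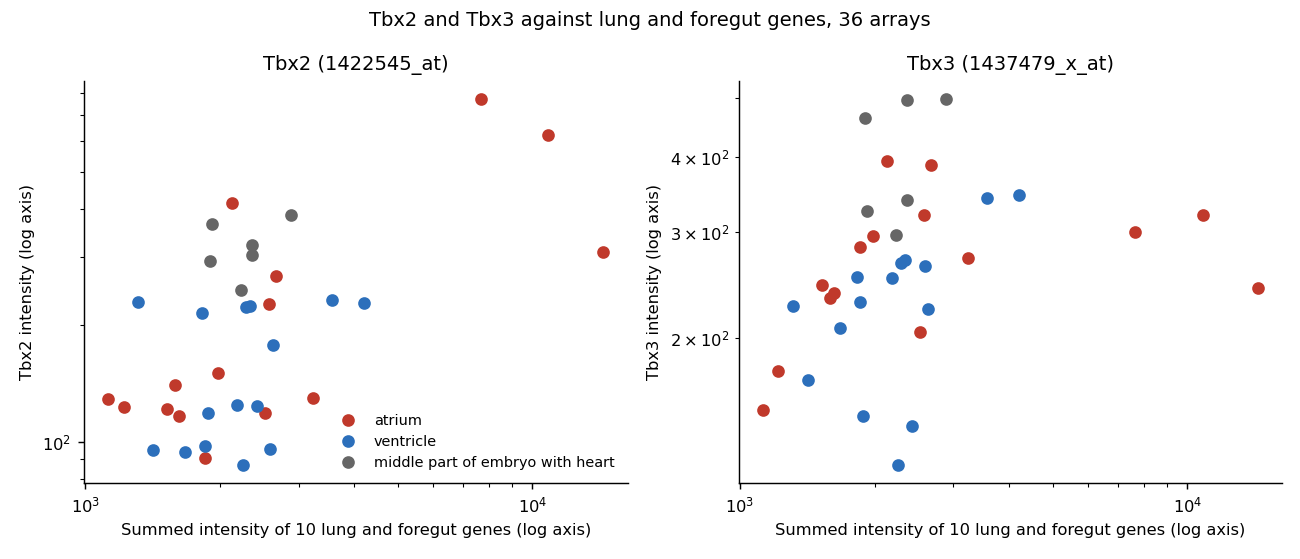
Intensity of Tbx2 and of Tbx3 (vertical, log axis) against the summed intensity of 10 lung and foregut genes (horizontal, log axis) on each of 36 arrays, coloured by sample type. The 3 atrial arrays at 7657.9 to 14373.3 on the horizontal axis include the highest readings of Tbx2 (770.6 and 621.2), and their Tbx3 readings lie within the range of the other arrays.

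Between E12.5 and E18.5, Shox2, Isl1 and Tbx18 fell in atria, and Tbx3 and Tbx2 did not pass the test. In atria, 5 of the 9 member probe sets were called lower at E18.5 and none higher, where 11.7% of all tested probe sets were called lower. The median of the 9 was -1.33, against 0.01 over all tested probe sets. Shox2 fell by 1.67 ± 0.43 (SE; limma adjusted p = 0.00475) on its leading probe set, to 526.7, 752.6 and 495.3 at E18.5, against 2017.0, 2378.1 and 1391.7 at E12.5, with no overlap. Its second probe set fell by 1.997 ± 0.47 (SE; limma adjusted p = 0.00241). Tbx18 fell by 1.11 ± 0.17 (SE; limma adjusted p = 3.13e-05), to 1500.9, 1396.1 and 1293.7 at E18.5, against 2608.3, 3644.7 and 2926.1 at E12.5. Its second probe set fell by 1.33 ± 0.19 (SE; limma adjusted p = 1.36e-05), with 654.0, 548.6 and 594.5 at E18.5 and 1343.2, 1831.2 and 1448.4 at E12.5. Tbx18 values did not overlap between these ages on either probe set. For neither Shox2 nor Tbx18 was the share of all tested probe sets without overlap between these atrial ages counted. Isl1 fell by 1.46 ± 0.52 (SE; limma adjusted p = 0.0379), to 50.7, 137.5 and 16.2, against 160.2, 321.8 and 104.6, and these values overlap. The second Isl1 probe set was not called, at -1.36 (95% interval -2.55 to -0.17; limma adjusted p = 0.0894). The call of the leading Isl1 probe set was lost without E18.5 replicate 3 (-0.92, limma adjusted p = 0.255), without E12.5 replicate 2 (-1.06, limma adjusted p = 0.196), without replicate 1 of either age, and without the 3 arrays with high lung genes (-0.92, limma adjusted p = 0.194). For Tbx3 the atrial difference was -0.04, with a 95% interval of -0.62 to 0.55, and for Tbx2 it was 0.17, with an interval of -0.87 to 1.21.

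In ventricles, 1 of the 9 probe sets was called lower at E18.5 than at E12.5 and none higher, where 16% of all tested probe sets were called lower. That probe set was the leading one of Tbx18, which fell by 0.45 ± 0.17 (SE; limma adjusted p = 0.0461), to 1520.6, 1412.4 and 1462.7, against 2239.3, 1896.9 and 1896.5. The ages did not overlap, but the call was lost on leaving out any 1 of the 6 arrays, with limma adjusted p between 0.056 and 0.175. How many of all tested probe sets had no overlap between these ventricular ages was not counted. Ventricular Tbx2 was not called, though its ages did not overlap: it was at 228.9, 230.7 and 232.7 at E18.5, against 97.6, 87.1 and 96.0 at E12.5. The difference of 1.17 had a 95% interval of 0.13 to 2.20 and limma adjusted p of 0.0868 in the fit of all 36 arrays, in which the 12 groups share 1 estimate of the spread. It was called in the fit of the 6 compared arrays alone (limma adjusted p = 0.00421) and in the fit without the 3 arrays with high lung genes (limma adjusted p = 0.00592). Ventricular Shox2 differed by -0.63 (95% interval -1.51 to 0.24), Isl1 by -0.37 (-1.43 to 0.69) and Tbx3 by 0.57 (-0.02 to 1.15), none called.

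The test of whether the 2 chambers changed differently between E12.5 and E18.5 called none of the 9 member probe sets, where 3.78% of all tested probe sets were called. At an unadjusted p below 0.05, 2 were lower, both of Tbx18. The atrial change minus the ventricular change was -0.66 and -0.85 for the 2 Tbx18 probe sets (limma adjusted p = 0.119 and 0.0672), -1.03 for Shox2 (limma adjusted p = 0.37), -1.09 for Isl1, -0.60 for Tbx3 and -0.996 for Tbx2. For Shox2 it depended on E12.5 ventricular replicate 1, the array with a high atrial gene: without it the value was -1.91 (limma adjusted p = 0.0156). Between E16.5 and E18.5 no member probe set was called in atria, where 0.316% of all tested probe sets were called, or in ventricles, where 0.216% were. At an unadjusted p below 0.05 there were 0 in atria and 1 in ventricles, Tbx18 at -0.41.

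**Figure D4:**
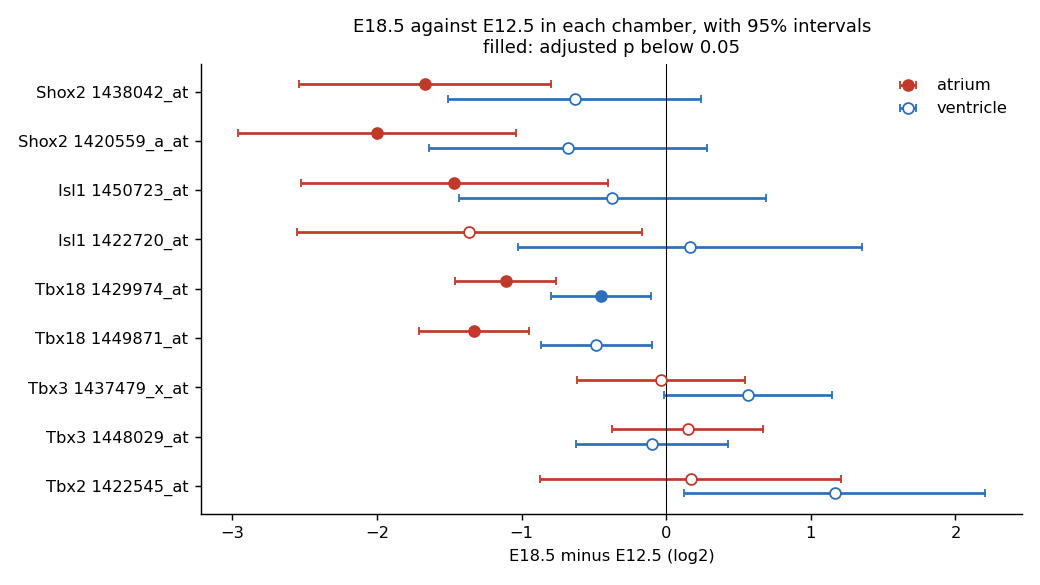
E18.5 minus E12.5 (log2 of intensity plus 17) for the 9 tested probe sets in atria (red) and ventricles (blue); points are limma estimates, bars are 95% intervals, and filled points have an adjusted p below 0.05. The atrial points of Shox2, Isl1 and Tbx18 lie between -1.997 and -1.11, and the atrial points of Tbx3 and Tbx2 lie near 0.

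Before the chambers were separated, all 5 factors were measured in the heart region. Shox2 was at 1269.4, 1271.4 and 1289.2 at E11.5, against 1197.3, 981.7 and 1122.6 at E10.5. Isl1 was at 366.6, 361.2 and 374.1 at E11.5, against 552.0, 375.0 and 551.9 at E10.5. Every E11.5 value of Shox2 thus lay above, and every E11.5 value of Isl1 below, the E10.5 values. For Isl1 the nearest values were 374.1 and 375.0, and the share of all tested probe sets that separate between these days was not counted. Tbx18 was at 2804.0, 3138.2 and 2032.4 at E11.5, against 2640.3, 2630.4 and 2659.5 at E10.5. Tbx3 was at 325.5, 464.7 and 296.7 at E11.5, against 498.2, 339.4 and 496.1 at E10.5. Tbx2 was at 366.1, 294.6 and 246.9 at E11.5, against 385.9, 322.4 and 305.2 at E10.5. For these 3 factors the days overlapped. None of the 9 probe sets was called between these days (0 at an unadjusted p below 0.05), where 1.16% of all tested probe sets were called. The differences were 0.22 for Shox2, -0.39 for Isl1, -0.02 for Tbx18, -0.29 for Tbx3 and -0.16 for Tbx2.

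E12.5 ventricles had less Shox2, and less Isl1 on its leading probe set, than the E11.5 heart region. Shox2 differed by -3.26 ± 0.43 (SE; limma adjusted p = 9.67e-05), its second probe set by -2.69 (limma adjusted p = 0.00302), and Isl1 by -3.37 ± 0.52 (SE; limma adjusted p = 0.000837). The second Isl1 probe set was not called, at -1.72 (95% interval -2.91 to -0.53; limma adjusted p = 0.155). Called lower were thus 3 of the 9 probe sets, where 0.649% of all tested probe sets were, and 8 were lower at an unadjusted p below 0.05. Tbx2 differed by -1.52, Tbx3 by -0.80 and Tbx18 by -0.38, none called. Against the same heart region, E12.5 atria gave no call (1 lower at an unadjusted p below 0.05), where 3.85% of all tested probe sets were called: Shox2 differed by 0.55 (95% interval -0.32 to 1.43), Isl1 by -0.99 (-2.05 to 0.07) and Tbx18 by 0.21 (-0.14 to 0.56). Both comparisons share the E11.5 arrays, and stage and dissection cannot be told apart in them. By its description the heart region may also hold tissue from outside the heart. There 7 limb and arch mesenchyme genes summed to 3037.1 to 3583.3, against 1035.4 to 2786.3 on atrial and 1445.1 to 2920.1 on ventricular arrays. Of these, Lmx1b, Alx4, Dlx5 and Dlx6 were below the filter, and Hand1 was called lower in atria (-1.43, limma adjusted p = 2.42e-10). The mean log2 level of the 7, centred over all arrays, did not set the heart region apart. It was 0.07 to 0.24 there, and 0.48 on E12.5 ventricular replicate 3. Limb buds express several of the 5 factors, and the part of such tissue in the heart region values was not tested.

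Over the 12 group means, the genes most like each factor were named by Pearson's r, as a description over groups that share the same arrays. For Shox2 they were Jag1, a Notch ligand (r = 0.978), Aplp1 (0.971), Fzd7, a Wnt receptor (0.965), Nr2f1, a nuclear receptor of atrial identity (0.963), and Clvs1 (0.962). For Isl1 they were Gnpnat1 (0.955), Bmp4, a bone morphogenetic protein (0.947), Enc1 (0.936), Ugdh (0.934) and Aff3 (0.932). For Tbx18 they were Obi1 (0.942), Nadk2 (0.941), Cdca4 (0.94), Prkar2b (0.939) and Ncaph, a condensin subunit (0.937). The 2 repressors were most like each other: Tbx3 and Tbx2 had r = 0.889, and next for Tbx3 came Ptprg (0.855), Bmper (0.852), Efhd2 (0.844) and Sox9 (0.815), and for Tbx2 Ado (0.869), Nckap5l (0.869), Id1 (0.853) and Tubb4a (0.837). Over the 10 chamber groups alone, without the heart region, the likeness to the repressors was lower: r was 0.825 between Tbx3 and Tbx2, 0.78 for Ptprg, 0.62 for Bmper, 0.624 for Efhd2 and 0.509 for Sox9 with Tbx3, and 0.77 to 0.828 for the 4 genes named with Tbx2. For the genes named with the other 3 factors it was 0.966 to 0.985 with Shox2, 0.877 to 0.936 with Isl1 and 0.934 to 0.954 with Tbx18. Among the 5 factors, over all 12 groups, Shox2 and Isl1 had r = 0.906, Isl1 and Tbx3 0.784, and Tbx18 and Tbx2 0.229.

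The other genes of the node network were read from 3 lists. Of 14 partner factors (T-box, GATA, Hand, Hey and Bmp genes among them), 13 had a tested probe set, and in the mean over ages 6 were higher and 4 lower in atria, where 20.9% of all tested probe sets were called higher and 21.5% lower. The median of the list was 0.11, against -0.01 over all tested probe sets. Tbx5, a T-box activator of atrial and node genes, was higher by 1.81 ± 0.11, Bmp4 by 1.30 ± 0.12 and Bmp2, a signal that switches on Tbx2 in the atrioventricular canal, by 1.11 ± 0.19. Hey2, a ventricular repressor, was lower at -2.87 ± 0.25 (SE in each case; limma adjusted p between 1.28e-13 and 2.56e-05 for the 4). Nkx2-5, which Shox2 holds back in the sinus node, was lower in atria by a small amount, at -0.18 ± 0.05 (SE; limma adjusted p = 0.00443). A link of this difference to Shox2 was not tested. The call of Mef2c (-0.09) was lost in 18 of the fits that left out 1 array.

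Of 17 pacemaker and node genes, 13 had a tested probe set, and 6 were higher and 2 lower in atria, against the same shares over all tested probe sets, with a median of 0.21. Vsnl1, a calcium sensor known from the sinus node, was higher by 3.93 ± 0.14, Kcnj3, a subunit of the acetylcholine-gated potassium channel, by 1.90 ± 0.11, and Rgs6, a regulator of its signal, by 1.20 ± 0.12. Irx3, an Iroquois factor of the ventricular conduction system, was lower at -1.25 ± 0.12 (SE in each case; limma adjusted p between 1.9e-18 and 4.86e-09 for the 4). The pacemaker channel gene Hcn4 had no probe set of its own among those used here. Of 10 working muscle genes known as targets of repression by Tbx2 or Tbx3, 8 were tested, and 1 was higher and 3 lower in atria (20.9% and 21.5% over all tested probe sets), with a median of -0.11. The gap junction gene Gja5 was higher by 1.56 ± 0.19, and Mycn (-1.002 ± 0.11), Cited1 (-0.84 ± 0.09) and the gap junction gene Gja1 (-0.45 ± 0.07) were lower (SE in each case; limma adjusted p between 4.99e-09 and 5.51e-06 for the 4).

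**Figure D5:**
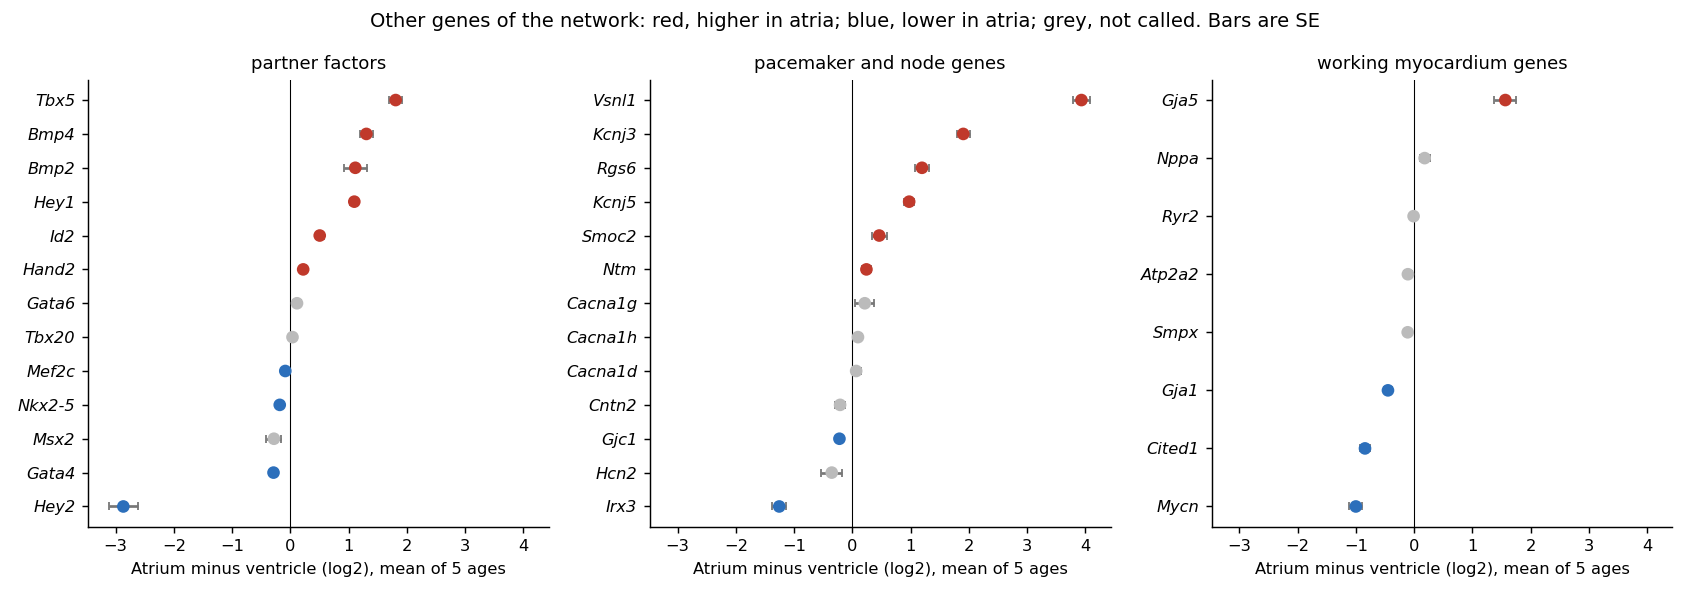
Atrium minus ventricle (log2 of intensity plus 17, mean of 5 ages) for the tested genes of the 3 lists; points are limma estimates, bars are SE, red is called higher in atria, blue called lower and grey not called. Vsnl1 (3.93) and Hey2 (-2.87) lie at the ends.

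Some genes of the lists also changed with age. In atria, 12.6% of all tested probe sets were called higher at E18.5 than at E12.5 and 11.7% lower. Of the 13 partner factors tested, 2 were higher and 2 lower, with Bmp4 at -1.30 ± 0.26 and Hey1, a Notch target, at -0.73 ± 0.16. In the pacemaker list, Kcnj3 was higher by 1.49 ± 0.25 and Kcnj5, its partner subunit, by 0.60 ± 0.18, and Cacna1h, a T-type calcium channel, was lower at -0.62 ± 0.16. In the working muscle list, Mycn was lower at -1.30 ± 0.25 and Ryr2, the calcium release channel, higher by 0.49 ± 0.12, as was Gja1 by 0.44 ± 0.16 (SE in each case; limma adjusted p between 9.13e-05 and 0.0386 for these 8). The atrial calls of Tbx5 (0.73) and Tbx20 (0.36) and that of Gja1 were lost without the 3 arrays with high lung genes, and leaving out some single arrays ended these calls and that of Kcnj5. In ventricles, where 12.7% of all tested probe sets were called higher and 16% lower, 2 of 13 partner factors were higher and 3 lower, 4 of 13 pacemaker genes higher and 2 lower, and 1 of 8 working muscle genes higher and 3 lower. Cacna1g, the other T-type calcium channel of the list, had the largest of these differences (3.06 ± 0.36, SE; limma adjusted p = 4.32e-07), and Gja5 (-1.80 ± 0.43), Cited1 (-1.18 ± 0.20) and Id2 (-1.14 ± 0.16) were lower (SE in each case; limma adjusted p between 3.94e-06 and 0.00192 for the 3). Leaving out some single arrays ended the ventricular calls of Tbx20, Kcnj5, Smoc2, Cntn2 and Mycn. The chambers' changes differed for Cacna1g (-2.66 ± 0.51, SE; limma adjusted p = 0.00257) and Hey1 (-1.13 ± 0.22, SE; limma adjusted p = 0.00337) among the genes of the lists. A further 6 genes of the lists passed that test, which called 3.78% of all tested probe sets, and each lost its call in at least 1 other fit.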

How the data were processed

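The deposited values are Affymetrix probe set intensities on a linear scale, 1 per probe set and array, which the authors had scaled per array before deposit; the sources used here name no software. Gene symbols came from GEO's platform annotation. All columns mapped to a sample, 36 in all. Control probe sets (64) were left out, and probe sets were tested if 3 or more arrays exceeded 171.8, which is the median over all arrays. limma 3.58.1 (R 4.3.3) fitted log2 of intensity plus 17 to 12 group means with an intensity trend, 24 residual degrees of freedom and two-sided tests, in 14 comparisons. This code was tested on simulated data. No pair of arrays was identical, and correlations within groups were 0.956 to 0.981. Alternatives covered the pseudocount, filter, normalization, model and single arrays. The settings without the 3 arrays with high lung genes, or without the 8 with genes of the other chamber, were chosen after seeing the data. The 5 members and the gene lists were chosen with earlier results of these data known. The named genes were all 5 members, the 5 genes most like each by group means, and from each list up to 4 called genes with the largest change in each comparison; Nkx2-5, Hcn4 and the genes named for a lost call were chosen after their values were seen.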

Additional observations from a re-analysis of the deposited data

How the results depend on the processing

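Shox2 and Isl1 were called higher in atria, averaged over the ages, under all alternatives run on their leading probe sets, apart from Isl1 under the strict filter, where it was not tested. Leaving out 1 array gave a mean difference of 3.23 to 3.49 for Shox2, 2.08 to 2.35 for Isl1, 0.12 to 0.19 for Tbx18, 0.17 to 0.30 for Tbx3 and 0.23 to 0.49 for Tbx2. With array weights, Tbx18 (0.21, limma adjusted p = 0.0217) and Tbx2 (0.61, limma adjusted p = 0.0217) were called on the mean. Without the 8 arrays with genes of the other chamber, which leaves 1 array of E14.5 atria, the mean Tbx18 difference was 0.26. Of the 9 probe sets, leaving out 1 array called 3 to 5 on the mean, 3 to 5 at E12.5, 1 to 2 at E18.5, 0 to 1 over time in ventricles and 0 to 1 in the test of different change. In ventricles over time the count was 0 with median centring, with no filter, with no intensity trend, with a replicate block and without the 8 arrays, 2 with the strict filter and without the 3 arrays with high lung genes, 3 with only the compared groups and 4 with array weights. The strict filter kept 3 member probe sets and called 1 on the mean, 3 at E12.5, 1 each at E13.5, E14.5 and E16.5, 3 over time in atria, 1 in the test of different change and 1 between E12.5 ventricles and the E11.5 heart region. Only the compared groups called 1 at E12.5 and 1 at E14.5. Array weights called 8 at E12.5, 5 at E13.5, 4 in the test of different change and 2 between E12.5 atria and the E11.5 heart region. At E18.5 a pseudocount of 1 called 3, and the fit without the 3 lung arrays called 2. At E12.5 the fit without the 8 arrays called 3. No member call reversed its direction, and the causes were not tested. Over all probe sets, the strict filter called 7319 on the mean, against 11570, and with only the compared groups 279 were called at E12.5 (2637 in all 12 groups), 29 at E14.5 (1684), 407 in the test of different change (1030) and 2218 between E11.5 and E10.5 (315). With array weights those 4 counts were 6994, 670, 4733 and 2417. Of 55 calls among 136 tests of list genes, 18 were lost in at least 1 alternative and 0 reversed. Same-numbered atrial and ventricular arrays did not deviate together: of 15 pairs, 1 correlated above 0.1 (range -0.335 to 0.159), and 2 arrays correlated best with their own number. The replicate block therefore pairs nothing known, and with it the ventricular Tbx18 change of -0.45 had a limma adjusted p of 0.0509. Dim probe sets have little signal over background, and the mean difference of the second Shox2 probe set ranged from 1.11 to 3.22 over the alternatives, against 2.69 to 3.67 for the leading one.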
